A study of Mus musculus with 2 samples.

Results

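Open chromatin was mapped by ATAC-seq in mouse T helper 2 (Th2) cells, and 1085 open regions at the start sites of long non-coding RNA (lncRNA) genes are described here, out of 44136 regions open in both replicates. ATAC-seq uses a transposase that inserts sequencing adapters where DNA is accessible, so a pile of fragments marks an open stretch. The labels name the assay as ATAC-seq, but the deposited peak names carry the words ASTARR and insert, which no source used here explains; if they stand for cloned inserts, every fold below measures those inserts and not the fragments of a plain ATAC-seq library. Both samples belong to 1 group, Th2 primary cells of strain C57BL/6NJ, labelled as biological replicates 1 and 2. They come from separate biosamples that name the same donor record, and nothing states that they are separate animals, so their spread can reflect technical variation alone. Sex was not collected, age is unknown, no agent or allele is named, and there was no control group or other cell type. Overlapping peaks of the replicates were joined, and a joined region was kept when its nearest edge lay within 1 kb of an annotated start of a lncRNA gene and more than 1 kb from every start of a protein-coding gene. The annotation was GENCODE release M21 on mm10, and the lncRNA types were lincRNA, antisense, processed_transcript, sense_intronic and bidirectional_promoter_lncRNA.

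lncRNAs are long transcripts with no long open reading frame. Many are made from their own promoters by RNA polymerase II, some serve as precursors from which small nucleolar RNAs (snoRNAs) or microRNAs are cut, some coat or silence a chromosome region in cis, and for many others no function is known. Open chromatin at a start site shows that the DNA was accessible there. It does not measure the RNA, and distal enhancers can also carry an annotated lncRNA start. In Th2 cells, the helper subset that makes interleukins 4, 5 and 13, accessible sites commonly hold binding sites for the AP-1, RUNX, GATA, STAT and ETS families of transcription factors.

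The labelled cell type was checked at coding promoters. All 8 Th2 genes on the list (Ccr4, Ccr8, Gata3, Il13, Il4, Il4ra, Il5 and Stat6) and all 6 T cell genes had a region open in both replicates within 1 kb of a start. Of the markers of other cells, 1 of 4 B cell genes (Pax5), 1 of 4 myeloid genes (Spi1), 0 of 3 CD8 and natural killer cell genes and 0 of 3 non-haematopoietic genes did. Over all coding genes the share was 60.1% (13182 of 21951). No marker list held genes of other helper subsets, so the check cannot tell Th2 cells from those. The replicates held 51557 and 60891 peaks.

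The sequences under the summits give examples of the DNA in the set. Each window below holds 200 bp of mm10 around the summit of replicate 1, written 5′ to 3′ in the direction of the lncRNA. Capitals mark matches, on either strand, to 12 short letter patterns typical of transcription factors, which are spelled out further on. The first window, at chr3:123508361-123508560 on the minus strand, is from the start region of Snhg8, a snoRNA host gene. It is rich in CpG, with 21 CpG dinucleotides and repeated SP/KLF letters. The 2 windows of Mir155hg, the precursor of the lymphocyte microRNA miR-155, are shown because 1 gene has a window rich in CpG and another poor in it. The window by its 5′ start, chr16:84703234-84703433 on the plus strand, has 33 CpG and the letters of a TATA box. Its summit lies 167 bp downstream of the nearest annotated start. The window of its other region, chr16:84713221-84713420, has 2 CpG and a summit 298 bp downstream of a start. Both Mir155hg windows are named for the nearest start and do not contain it, so the TATA letters lie downstream of the start. The window of Kcnq1ot1, the antisense RNA of an imprinted cluster, lies at chr7:143296502-143296701 on the minus strand.
Snhg8: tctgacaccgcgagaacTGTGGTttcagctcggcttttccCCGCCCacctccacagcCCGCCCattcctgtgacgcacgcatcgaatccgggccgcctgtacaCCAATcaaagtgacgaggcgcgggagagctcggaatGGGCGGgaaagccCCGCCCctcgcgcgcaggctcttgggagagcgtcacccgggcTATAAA
Mir155hg 5′ start: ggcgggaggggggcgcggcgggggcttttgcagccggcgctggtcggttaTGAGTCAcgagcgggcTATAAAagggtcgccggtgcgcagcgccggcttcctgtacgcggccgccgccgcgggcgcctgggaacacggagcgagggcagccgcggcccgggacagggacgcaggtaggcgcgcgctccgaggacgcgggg
Mir155hg inner start: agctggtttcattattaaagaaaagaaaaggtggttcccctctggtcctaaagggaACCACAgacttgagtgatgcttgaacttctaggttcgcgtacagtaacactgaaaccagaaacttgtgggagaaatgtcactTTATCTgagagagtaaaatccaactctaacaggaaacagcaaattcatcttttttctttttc
Kcnq1ot1: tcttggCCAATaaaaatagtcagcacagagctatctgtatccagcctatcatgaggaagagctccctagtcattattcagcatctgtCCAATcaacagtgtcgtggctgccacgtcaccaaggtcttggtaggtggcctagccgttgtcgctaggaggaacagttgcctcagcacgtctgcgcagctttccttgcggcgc

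Further windows show strongly open regions with few or no CpG.
Gm44206 (chr6:115823941-115824140, plus strand) and Gm30173 (chr3:52516017-52516216, plus strand) have 0 CpG, and their only pattern matches are GATA and STAT letters. The third region of Pvt1, a long transcript downstream of the growth regulator Myc, lies at chr15:62222790-62222989 on the plus strand and holds 1 CpG and an AP-1 match.
Gm44206: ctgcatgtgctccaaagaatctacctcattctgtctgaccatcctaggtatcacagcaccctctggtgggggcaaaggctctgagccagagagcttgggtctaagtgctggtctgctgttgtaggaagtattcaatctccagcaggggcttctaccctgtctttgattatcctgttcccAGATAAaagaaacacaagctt
Gm30173: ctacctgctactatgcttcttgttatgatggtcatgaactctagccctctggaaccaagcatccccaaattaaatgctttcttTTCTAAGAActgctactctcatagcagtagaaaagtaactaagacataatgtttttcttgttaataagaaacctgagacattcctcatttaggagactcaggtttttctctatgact
Pvt1: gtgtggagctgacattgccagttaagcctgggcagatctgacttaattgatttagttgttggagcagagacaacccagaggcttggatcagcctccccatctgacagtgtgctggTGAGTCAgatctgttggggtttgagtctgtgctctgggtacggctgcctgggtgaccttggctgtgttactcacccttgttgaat

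Some members are copies of each other, which bears on how reads can be assigned to them. In 400 bp windows, 17 regions fell into 6 families in which neighbours shared at least 60 of 385 possible 16-base words. The largest has 4 regions on chromosome 13, beside the zinc finger gene Zfp825 and Erap1. The stretches below are 150 bp long and end at or near the annotated start. They lie at chr13:74563869-74564018 (Gm47469), chr13:74462711-74462860 (E430024I08Rik) and chr13:74522483-74522632 (Gm47467), all on the minus strand, and capitals mark the 129 positions (86.0%) that are the same in the 3 copies.
Gm47469: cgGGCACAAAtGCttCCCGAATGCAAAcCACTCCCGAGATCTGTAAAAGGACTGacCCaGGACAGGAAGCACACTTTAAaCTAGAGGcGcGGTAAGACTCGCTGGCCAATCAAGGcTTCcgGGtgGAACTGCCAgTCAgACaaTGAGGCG
E430024I08Rik: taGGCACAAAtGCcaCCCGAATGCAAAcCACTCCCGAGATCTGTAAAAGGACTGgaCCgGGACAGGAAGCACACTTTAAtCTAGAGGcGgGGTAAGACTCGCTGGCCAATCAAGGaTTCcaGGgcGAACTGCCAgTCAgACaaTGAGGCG
Gm47467: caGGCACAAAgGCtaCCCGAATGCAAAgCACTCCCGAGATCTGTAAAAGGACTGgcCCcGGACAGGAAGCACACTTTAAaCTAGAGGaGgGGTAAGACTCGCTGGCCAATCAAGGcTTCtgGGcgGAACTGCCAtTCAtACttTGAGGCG

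Against Gm47469, E430024I08Rik was 91.3% identical, and Gm47467 and the unprinted copy Gm46430 were each 90.7% identical. A second family on chromosome 17 was closer still. Its stretches lie on the plus strand at chr17:17294250-17294399 (Gm6712), chr17:16951369-16951518 (BC002059) and chr17:17234686-17234835 (Gm5165), with capitals at the 141 positions (94.0%) shared by all 3.
Gm6712: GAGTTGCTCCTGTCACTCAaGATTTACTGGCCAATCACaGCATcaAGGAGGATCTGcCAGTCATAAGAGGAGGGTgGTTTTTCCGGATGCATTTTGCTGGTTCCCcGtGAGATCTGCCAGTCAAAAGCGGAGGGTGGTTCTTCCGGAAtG
BC002059: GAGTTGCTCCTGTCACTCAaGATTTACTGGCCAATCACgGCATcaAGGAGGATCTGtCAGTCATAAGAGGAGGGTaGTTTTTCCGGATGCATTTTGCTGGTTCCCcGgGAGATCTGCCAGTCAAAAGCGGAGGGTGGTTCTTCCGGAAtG
Gm5165: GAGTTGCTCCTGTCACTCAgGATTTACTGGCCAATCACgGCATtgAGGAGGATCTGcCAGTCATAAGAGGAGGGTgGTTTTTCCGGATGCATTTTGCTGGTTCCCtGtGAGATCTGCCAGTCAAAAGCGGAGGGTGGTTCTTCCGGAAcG

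BC002059 was 97.3% and Gm5165 96.0% identical to Gm6712. In RefSeq, another gene catalogue, a curated mRNA starts inside the regions of Gm6712 and Gm5165, so their lncRNA label does not hold there. All 6 printed copies hold 1 CCAAT, the letters of the factor NFY, inside the conserved part. A read from such a stretch can match several copies, so the split of the signal between them is uncertain.

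Fold enrichment is the deposited ratio of the summit to its local background. Over the 1085 regions its median was 5.91 in replicate 1 (25th to 75th percentile 4.19 to 8.25, range 2.09 to 28.3) and 6.78 in replicate 2 (4.71 to 9.54, range 1.82 to 31.2). The median width was 773 bp (524 to 1083, range 210 to 3108). Summit pileups, the counts at the highest point that the deposited fold and p together give, had medians of 37 and 53. A count of 37 has an exact 95% Poisson interval of 26.1 to 51.0 and a count of 53 one of 39.7 to 69.3, which cover counting error only. The lowest pileups were 10 and 11.

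The regions sat between distal sites and coding promoters in fold and width. Regions far from both kinds of start (28647) had median folds of 5.50 and 6.28 and a median width of 611 bp, and regions within 1 kb of a coding start (14328) had 8.60 and 9.72 and 1111 bp. The 1521 regions near both a coding and a lncRNA start, which the rule leaves out, had medians of 9.29 and 10.4 and 1265 bp. A fold of at least 10 in both replicates was reached by 158 lncRNA start regions (14.6%, Wilson 95% interval 12.6 to 16.8), against 36.6% at coding starts and 9.52% far from both. Regions of the same 2 libraries are not replicates, so these differences between sets were not tested.

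**Figure D1:**
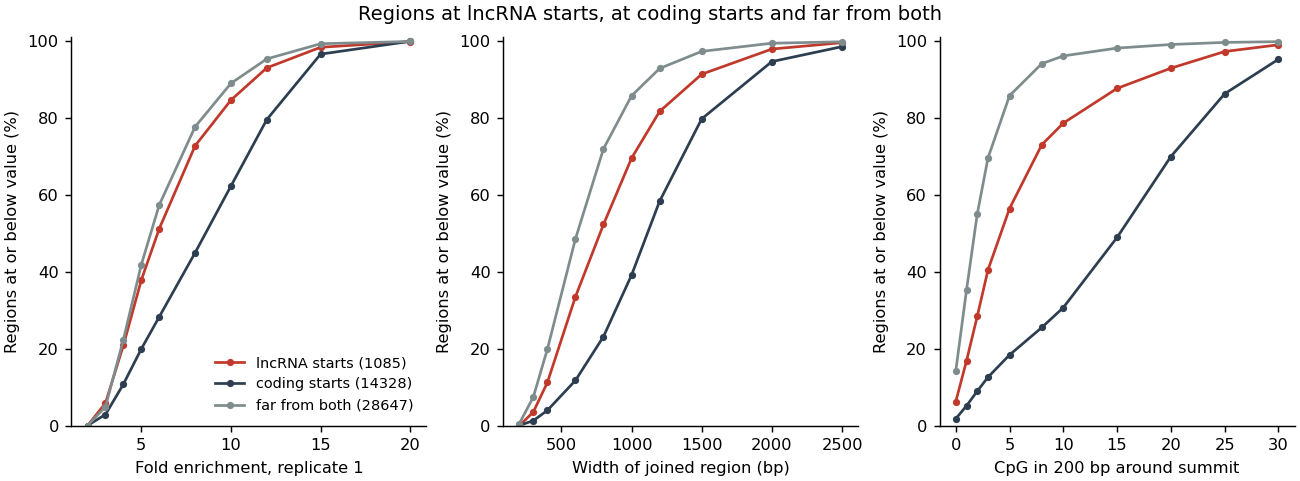
Cumulative share of regions (y axis, %) at or below a fold enrichment in replicate 1, a width in bp and a number of CpG in the 200 bp summit window (x axes), for the 1085 regions at lncRNA starts, 14328 at coding starts and 28647 far from both. The lncRNA start curve runs between the other curves in width and CpG and nearer to the far regions in fold, with medians of 5.91 against 8.60 and 5.50.

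The replicates ranked the regions much alike. Spearman's rho of the fold between them was 0.882 over the 1085 regions and 0.879 over all shared regions, as a description of points that share 2 libraries. The summits of the replicates lay a median of 32 bp apart. Replicate 2 had the higher fold in 782 regions (72.1%), beside 71.3% of all shared regions. It was more than 1.5 times higher in replicate 2 in 99 regions (9.12%, background 8.93%) and in replicate 1 in 16 (1.47%, background 1.96%). These shares are near those of all shared regions.

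The regions that differed most between the replicates had low counts in one of them. Gm48056, near Txndc5, had folds of 4.87 and 13.5 on pileups of 18 and 77, and Gm41333, 581.5 kb from Myc, had 3.33 and 8.07 on pileups of 12 and 43. The other 3 of the 5 furthest above in replicate 2 were 4930422M22Rik (3.33 and 9.16), Gm48821 (3.83 and 9.40) and Gm47950 (4.02 and 9.42). In the opposite direction 1700021A07Rik had 8.21 and 4.06, Gm16014, inside the ectoenzyme gene Cd38, 7.44 and 3.84, 5330438D12Rik 4.49 and 2.44, Gm11638 4.19 and 2.29, and Gm16299 4.72 and 2.71. Regions at lncRNA starts found in a single replicate numbered 127 in replicate 1 and 319 in replicate 2, with median folds of 3.31 and 3.39 and widths of 273 and 271 bp. Counted as joined regions, 89.5% of those at lncRNA starts with a replicate 1 peak were shared, and 77.3% of those with a replicate 2 peak. Over all joined regions these shares were 86.5% and 73.2%.

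**Figure D2:**
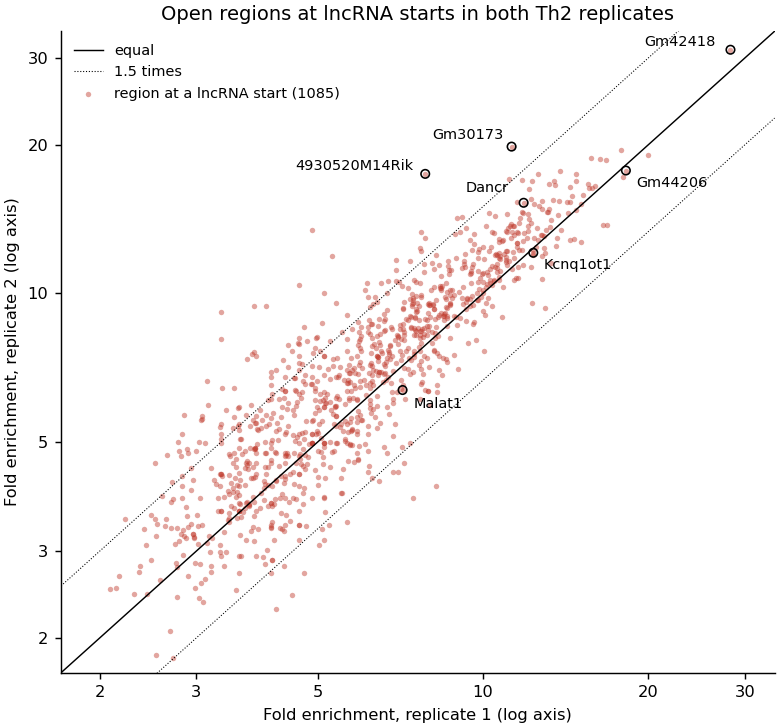
Fold enrichment of each of the 1085 regions in replicate 1 (x, log axis) and replicate 2 (y, log axis), with the line of equality and dotted lines at 1.5 times either way. Points follow the diagonal (Spearman's rho 0.882) with more above it than below (782 of 1085), and Gm42418 stands at the top right at 28.3 and 31.2.

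Of 1085 regions, 641 (59.1%) belonged to a lincRNA gene, 263 to an antisense gene, 156 to a processed_transcript gene, 22 to a sense_intronic gene and 3 to a bidirectional_promoter_lncRNA gene, taking the gene with the nearest start. Median folds were 5.97 and 6.71 for lincRNA, 5.39 and 6.26 for antisense, 6.55 and 7.70 for processed_transcript and 6.68 and 7.20 for sense_intronic genes. The 1085 regions lay at starts of 1046 lncRNA genes, and a gene could have several regions. Of these genes, 970 had 1 region, 68 had 2, 6 had 3 and 2 had 4. The 2 with 4 regions were A430093F15Rik and 2310001H17Rik, and those with 3 were Pvt1, Lncpint, Trerf1, Gm2800, 4930500F04Rik and 2010204K13Rik. By nearest coding gene, the most members, 5, shared Uaca, a gene of apoptosis regulation.

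Most lncRNA genes had no open start. Of 8092 lncRNA genes with no start within 1 kb of a coding start, 1082 (13.4%, 12.6 to 14.1) had an open region within 1 kb of a start, whereas 1406 of 2028 (69.3%) of those with a start beside a coding start did. The share among coding genes was 60.1% (13182 of 21951). Among the genes away from coding starts, the processed_transcript type was open most often (29.3% of 451) and the sense_intronic type least (8.85% of 305), apart from the bidirectional type with 4 genes. By chromosome, the share was 21.3% on chromosome 17 and 19.9% on chromosome 11, and 0 of 551 genes were open on chromosome Y, where shared regions numbered 4 in all.

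The type label does not always mean non-coding in another catalogue. In RefSeq, a curated mRNA starts within 1 kb of 28 of the regions (2.58%), and any mRNA, predicted ones included, within 1 kb of 73 (6.73%). Examples are the processed_transcript genes Trerf1, Zswim6, Ptpmt1, Ifi30 and Tctn2, which RefSeq holds as coding. The 73 regions had median folds of 6.70 and 8.40, and the other 1012 had 5.90 and 6.68.

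Closeness to a start was part of the rule, so positions around it are given as a description. A start lay inside the region in 622 cases (57.3%), up to 200 bp away in 114, beyond that but up to 500 bp away in 117 and more than 500 bp away in 232. Wider regions cover a start more often by construction. Regions over a start had a median width of 893 bp and folds of 6.72 and 7.61, against 641 bp, 4.88 and 5.45 for those more than 500 bp away. Their windows also held more CpG, a median of 6 against 3. Among the 622, the summit was upstream of the start in 395 (63.5%), with a median position of -43 bp. Over all 1085, 295 summits lay 0 to 200 bp upstream and 147 lay 0 to 200 bp downstream.

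**Figure D3:**
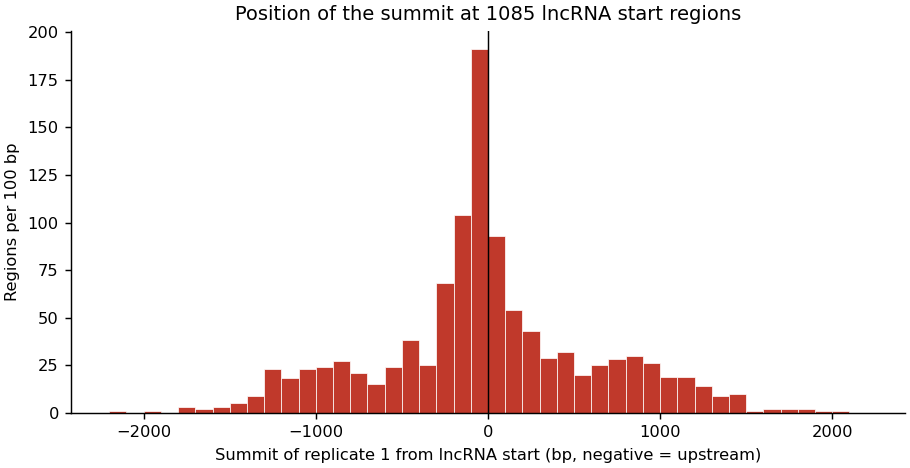
Number of regions (y axis) by the position of the replicate 1 summit relative to the nearest lncRNA start (x axis, bp, in the direction of transcription, bins of 100 bp). The tallest bar, 191 regions, covers the 100 bp just upstream of the start, and the bar just downstream holds 93.

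The distance rule divides regions of overlapping fold. The 5 regions just beyond the 1 kb limit to a coding start, which were kept, had folds from 2.36 to 9.88 in replicate 1. They were led by Gm11769 at 1002 bp from Slc38a10 and Gm11724 at 1027 bp from Tmc8. The 5 just within that limit, which were left out, had 3.99 to 12.2 in replicate 1. They were led by Ptprv at 988 bp from Ptpn7 and Gm15663 at 963 bp from Tmtc2. At the 1 kb limit to the lncRNA start, Gm12589 (1000 bp) had folds of 6.16 and 4.78 and was kept, and Gm28095 (1005 bp) had 2.99 and 3.97 and was not.

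The nearest coding start lay a median of 21608 bp away (25th to 75th percentile 7351 to 57609, range 1002 to 734699). The 195 regions within 5 kb of a coding start had the lowest folds, with medians of 4.56 and 5.49, and the 145 regions beyond 100 kb had 6.50 and 6.92. Close to coding genes the lncRNA was mostly on the opposite strand. Within 5 kb, 78 of 195 starts (40%) were antisense inside the coding gene and 63 (32.3%) were divergent and upstream of it, and beyond 5 kb these were 11.8% and 25.6% of 890. The summit was outside coding genes in 827 regions (76.2%), in a coding intron in 203 and in a coding exon in 55, with median folds of 6.21 and 6.95, 5.23 and 6.26, and 4.62 and 5.25.

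The 10 regions farthest from any coding start included strongly open ones. Gm11674 was the farthest, 734.7 kb from the potassium channel gene Kcnj2, with folds of 7.29 and 10.3. Gm20125, 725.9 kb from the coactivator gene Cited2, had 15.1 and 12.7. Gm30214, 543.4 kb from the olfactory receptor gene Olfr1507, had 16.6 and 13.8. It lies 2386 bp from the start of Trav8d-2, a variable segment of the T cell receptor alpha locus, and such segments are not typed as protein-coding in the annotation. Only 1 other region, at 5830405F06Rik, was within 20 kb of a receptor segment, 3218 bp from Trbv4, with folds of 4.53 and 6.35.

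The strongest region stood apart from the rest and overlaps an annotated ribosomal RNA gene. It covers the start of Gm42418 (chr17:39846149-39847913), is 1765 bp wide, and had folds of 28.3 and 31.2 on pileups of 482 and 553. No other member lay within 1 kb of an annotated rRNA start. Ribosomal RNA genes exist in many copies, and how their reads were assigned was not tested. Other strong regions were Gm13274, 2006 bp from Gm13283 (19.997 and 19.1), 1810019N24Rik near Zfp324 (17.8 and 19.5), Gm44206, antisense inside Efcab12 (18.2 and 17.7), Gm10010 (18.03 and 17.3) and 1700096K18Rik (16.4 and 18.7).

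Among the 15 regions ranked highest over both replicates, 13 covered a lncRNA start (57.3% of all members). Of these 15, 13 had at least 6 CpG in the window (43.5% of all members). The 2 with fewer were Gm44206, with 0, and Gm20939, with 2. For 5 of the 15 (Gm13274, Gm37494, Gm20939, Gm46430 and AC110262.3) RefSeq places the start of a curated mRNA within 1 kb. Also, 4 of the 15 (E430024I08Rik, Gm47467, Gm46430 and Gm20939) belong to the sequence families, whose 17 regions had median folds of 11.0 and 13.4.

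The deposited folds of the 4 chromosome 13 copies lay close together, with the assignment of reads to single copies uncertain as said above. Gm47469 had folds of 16.8 and 13.8, E430024I08Rik 15.6 and 16.3, Gm47467 15.2 and 15.8, and Gm46430 16.01 and 16.5. The chromosome 17 copies had a wider range, with 11.8 and 16.9 at BC002059, 8.98 and 14.2 at Gm5165 and 8.72 and 9.49 at Gm6712. A further family joined Gm31793 on chromosome 10 (12.8 and 15.4), Gm20939 on chromosome 17 (15.7 and 18.8) and Gm32856 on chromosome 8 (11.0 and 11.9). Besides Gm46430 and Gm20939, RefSeq places a curated mRNA start inside the family regions of Gm6712, Gm5165 and Gm32856. The family of Gm47450, CR974462.6 and 4930481A15Rik had 43.5%, 73.5% and 97.0% of its windows masked as repeats and folds of 4.62 to 5.77 in replicate 1.

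The nearest coding gene was a zinc finger gene named Zfp with a number in 32 regions (2.95%), beside 1.49% of all shared regions and 1.15% of the 29732 shared regions beyond 1 kb of a coding start. This grouping was made after the values were seen. The 32 regions had median folds of 7.12 and 8.09, the 27 of them outside the sequence families 6.37 and 6.99, and all other members 5.90 and 6.74.

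Of the 8 regions lowest in rank, 6 did not cover a start, beside 57.3% of all members that did. Narrow regions cover a start less often by construction. The 8 included 4930594M22Rik, antisense inside Tmtc4 (2.72 and 1.82), and 5830408C22Rik, antisense inside Plekha2 (2.53 and 1.85). Gm11998 (2.09 and 2.52) and 2500004C02Rik (2.15 and 2.52) were also among the 8. The narrowest was Gm19708, 210 bp wide, with folds of 3.97 and 2.92. The widest region, 3108 bp, was at Mir17hg. It was followed by Gm11959 near the cytokine gene Lif (3009 bp, folds 2.97 and 3.18), Dleu2 (2543 bp) and Lockd (2530 bp).

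A low fold did not always mean few fragments. Of the 121 regions with a fold under 4 in both replicates, 21 had a pileup above the member medians in both. Their median local background was 15.99 and 21.2 counts, against 5.22 and 6.59 over all members. A background above the member medians follows from this selection by construction, because the fold is the summit over that background. The clearest case is Mir142hg, the precursor of the haematopoietic microRNA miR-142, which had pileups of 143 and 177 over backgrounds of 54.8 and 67.0, and so folds of 2.58 and 2.62. The 4 regions of 2310001H17Rik, which lie 36.8 to 42.2 kb from the activation marker gene Cd69, had pileups of 64 to 99 in replicate 1 and 96 to 152 in replicate 2 and folds of at most 4.52 and 5.66.

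Host genes of snoRNAs, whose introns carry small RNAs that guide the modification of ribosomal RNA, were mostly open at a CpG-rich start. Of 17 annotated genes on the list, 9 had a member region, 6 had an open region beside a coding start, and 2 (Snhg14 and Snhg18) had none. Over all 10120 lncRNA genes, the background for each lncRNA list below too, 10.3% had a member region. An open region of either kind within 1 kb of a start was found for 24.6% of them. The 11 regions had median folds of 9.27 and 10.5. All 11 covered a start (57.3% of all members), 9 had at least 6 CpG (43.5%), and 10 were higher in replicate 2 (72.1%). Dancr led with 11.9 and 15.3, followed by Snhg5 (9.99 and 12.4), Snhg8 (9.63 and 12.6), Snhg6 (9.27 and 12.001) and Epb41l4aos (9.51 and 11.0). Snhg15 and Snhg12 had 2 regions each, of which the weaker had 2.97 and 3.20, and 5.48 and 5.36. Gas5, Snhg1 and Zfas1 were among the 6 open beside a coding start.

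The list of microRNA host genes also holds Mirt1 and Mirt2, which are named for myocardial infarction and are not host genes. Without them, 7 of 11 annotated genes had a member region, Mir22hg was open beside a coding start, and Mir124-2hg, Mir99ahg and Mirg had none. Their 9 regions had median folds of 6.39 and 7.12, and the 10 with Mirt1 (4.27 and 3.85) had 6.33 and 7.04. Dleu2, host of the miR-15a and miR-16-1 cluster, had regions with folds of 10.6 and 11.98, and 6.26 and 7.12. Mir155hg had 6.39 and 6.95 at its 5′ start and 7.60 and 8.50 at the inner start, so the 2 sequences printed above were about equally open with 33 and 2 CpG. Mir17hg, host of the miR-17-92 cluster, had 7.72 and 9.82, with the summit at -2157 bp from the start in a window with 37 CpG. The host genes of the neural microRNAs miR-9 and miR-124, Mir9-3hg (3.54 and 2.502) and Mir124a-1hg (4.52 and 4.10), had weak regions.

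Among lncRNAs of X inactivation and imprinting, 8 of 11 had a member region, and H19, Meg3 and Rian had none. All 10 regions held at least 6 CpG, beside 43.5% of all members, and their median folds were 7.36 and 7.96. The imprinted antisense RNA Kcnq1ot1 had 12.3 and 12.1, and Airn, the antisense RNA inside Igf2r, 4.29 and 6.39. Nespas, antisense inside Gnas, had 7.31 and 7.02, and Peg13, inside Trappc9, 6.84 and 8.45. In the X inactivation centre, Ftx, an activator of Xist, had 10.5 and 14.4, and 9.58 and 11.5, and Jpx 7.42 and 9.50. Xist, which coats the inactive X chromosome, had a region over its start with 4.70 and 3.74 and a region in the transcribed part, 1487 bp downstream of a start, with 7.81 and 7.46. Tsix, its antisense repressor, had 3.85 and 5.65. The annotation types Gm26992 at this locus as protein-coding, and it is the nearest coding gene of Tsix, Xist and Jpx.

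Nuclear and widely expressed lncRNAs had 12 of 21 genes with a member region, 4 open beside a coding start and 5 without (Dnm3os, Gm20342, Hotair, Meg3 and Miat). The 18 regions had median folds of 8.08 and 9.12. The highest were 2900097C17Rik (14.6 and 12.9), 1810026B05Rik upstream of the chromatin remodeller gene Chd2 (12.8 and 13.1), Crnde (11.6 and 13.9) and Lockd beside the cell cycle inhibitor gene Cdkn1b (10.3 and 10.5). Malat1, the nuclear speckle RNA, had 7.13 and 6.36. The start of Neat1, the scaffold RNA of paraspeckles, shares its region with Frmd8os, with 4.74 and 4.70 on pileups of 108 and 171. Trp53cor1, beside the p53 target Cdkn1a, had 6.17 and 5.38, and Firre, an X-linked nuclear RNA, had regions of 5.14 and 6.13, and 8.71 and 9.52. Pvt1 had regions of 5.76 and 5.29 and of 3.98 and 4.17 near its 5′ end. The region 234.9 kb from the Myc start, with the AP-1 letters printed above, had 9.14 and 14.3.

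Of the 10 regions at immune lncRNAs, 6 had folds below the median of all members in replicate 1 and 8 in replicate 2, mostly in windows with few CpG. By definition a median has as many members below it as above it, and 6 of 10 is near that. Of the 6, 3 were regions of A430093F15Rik. One of the 8, Bach2it1, lay at 6.7756 against a replicate 2 median of 6.7764. Of 18 annotated genes on the list, 7 had a member region, 4 were open beside a coding start and 7, among them Ifngas1, had none. Ifngas1 lies beside the Th1 cytokine gene Ifng. The 10 regions had median folds of 4.82 and 5.62, and 1 of 10 had at least 6 CpG, beside 43.5% of all members. A430093F15Rik, between the T cell surface receptor genes Cd5 and Cd6, had 4 regions, led by 8.69 and 10.2 at 8243 bp from Cd5, with the other 3 between 2.902 and 5.06 in replicate 1. AW112010, an interferon-inducible transcript, had 4.13 and 2.88. Bach2it1 and Bach2os, inside the gene of the repressor Bach2, had 6.70 and 6.78, and 3.88 and 5.32. 5830428M24Rik had 6.21 and 8.28.

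**Figure D4:**
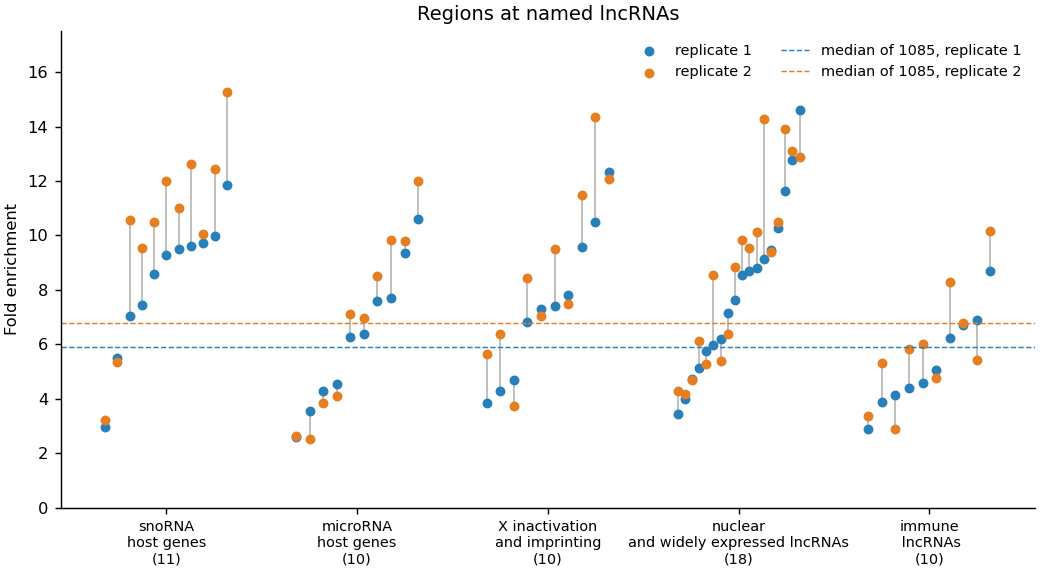
Fold enrichment (y axis) of the regions at named lncRNAs, grouped by list (x axis, number of regions in parentheses, regions ordered by replicate 1, Mirt1 drawn with the microRNA host genes), with a blue point for replicate 1 joined to an orange point for replicate 2. Dashed lines mark the medians of all 1085 regions, 5.91 and 6.78. Of 11 snoRNA host regions all but 2 lie above both lines, and 6 of 10 immune lncRNA regions lie below the replicate 1 line in replicate 1.

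Some members have a T cell gene as the nearest coding gene. The T cell identity and transcription factor list was nearest to 33 regions (3.04%, beside 1.63% of all shared regions), with median folds of 4.39 and 5.56. All shared regions include 14328 within 1 kb of a coding start, which the rule keeps out of the members. For this list and those below, the 2 shares are therefore of unlike sets. A gene can also count more than once, and A430093F15Rik gave 4 of the 33 regions. Near Foxo1, a factor of T cell quiescence and homing, Gm30173 had 11.3 and 19.8 at 247.6 kb, in the CpG-free window printed above, and Gm37170 had 10.6 and 11.4 at 68.8 kb. Gm33619, 25.6 kb from the progenitor factor gene Myb, had 7.81 and 11.0, and Gm13293, 88.2 kb from the T cell kinase gene Prkcq, 7.84 and 8.86. Gm35330, near Klf6, had regions of 6.67 and 9.24 and of 2.82 and 4.25. Regions inside or close to Tcf7, Cd3e and Ikzf1 had low folds. Gm26551 had 3.80 and 3.36, Gm48719 4.34 and 4.12, and 3.19 and 2.72, and Gm12000 3.37 and 3.28. The pileups of Gm12000 were 50 and 59, above the member medians of 37 and 53, over backgrounds of 14.1 and 17.3. Those of Gm26551 were 29 and 28.

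Activation and signalling genes were nearest to 18 regions (1.66%, beside 1.01%), with median folds of 5.39 and 6.13. Gm34983, 193.7 kb from the phosphatase gene Dusp6, had 11.8 and 12.3, and Gm33524, near the immediate early factor gene Egr3, 10.5 and 10.6. Gm20139 had 9.27 and 11.3 at 151.5 kb from Tnfaip3, the inhibitor of NF-κB signalling. Gm11175, 1652 bp from the AP-1 gene Jund, had 2.83 and 2.94 on pileups of 69 and 104.

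Th2 genes were nearest to 5 regions (0.461%, beside 0.533%), and of 28 genes on the list only Gata3, Gfi1, Irf4 and Stat6 were among them. 4930428O21Rik, 20.3 kb from Gfi1, a repressor that promotes Th2 cell growth, had 11.3 and 13.8, and Gm26692, 35.6 kb from it, 5.66 and 6.67. Gm13219, whose nearest coding start was that of the Th2 master regulator Gata3, lay 521.8 kb from it with 5.13 and 6.31. Gm29675, 46.1 kb from Irf4, had 5.72 and 5.47, and Gm16229, 2439 bp from Stat6, 3.84 and 4.23. Genes of the other helper subsets were nearest to 1 region (0.0922%, beside 0.470%). It was Gm29114, 170.3 kb from Ikzf2 (8.25 and 6.30). Nearest by distance says nothing of which gene a region acts on.

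Base composition varied across the set. The summit windows had a median GC content of 52.5% and a median of 5 CpG per 200 bp, beside 64.0% and 16 at coding starts and 47.5% and 2 far from both. At least 6 CpG were found in 472 windows (43.5%, Wilson 95% interval 40.6 to 46.5), beside 81.6% at coding starts and 14.2% far from both. These 472 regions had median folds of 6.77 and 7.59 and a median width of 933 bp. The 430 regions with 2 to 5 CpG had 5.43 and 6.13 and 678.5 bp, and the 183 regions with 0 or 1 CpG had 5.08 and 5.86 and 617 bp.

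The patterns were CCGGAAGT for ETS, TGTGGT for RUNX, TGANTCA for AP-1, AGATAA for GATA, CCAAT for NFY, GGGCGG for SP/KLF, AAGATGGC for YY1, TATAAA for the TATA box, TTCNNNGAA for STAT and GGAAAATT for an NFAT-like site, together with longer patterns for NRF1 and CTCF with 1 free base each. Both strands were searched, and matches of different patterns may overlap. Each share below is of 200 bp windows, and the share in all shared regions is the background. SP/KLF letters occurred in 22.1% of lncRNA start windows and 22.1% of all, beside 52.3% at coding starts and 6.96% far from both. AP-1 letters occurred in 17.4% (all 21.2%, coding starts 6.23%, far from both 28.8%) and RUNX letters in 17.1% (18.5%, 9.67% and 23.0%). GATA letters occurred in 6.73% (9.31%, 3.55% and 12.3%), STAT in 9.12% (10.1%, 4.72% and 12.8%) and ETS in 2.49% (2.35%, 5.72% and 0.660%). NFY letters, held by all the printed family copies, occurred in 21.9% (all 22.2%, coding starts 28.0%, far from both 19.3%). TATAAA was found in 5.62% (5.81%, 2.76% and 7.34%), CTCF letters in 0.645% (0.906%, 0.565% and 1.09%) and NRF1 in 1.66% (2.36%, 6.47% and 0.328%). The YY1 share, 0.829% (9 windows), was below all the others (1.75%, 3.16% and 1.08%), and the NFAT-like share, 0.553% (6 windows), above them (0.411%, 0.223% and 0.499%).

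**Figure D5:**
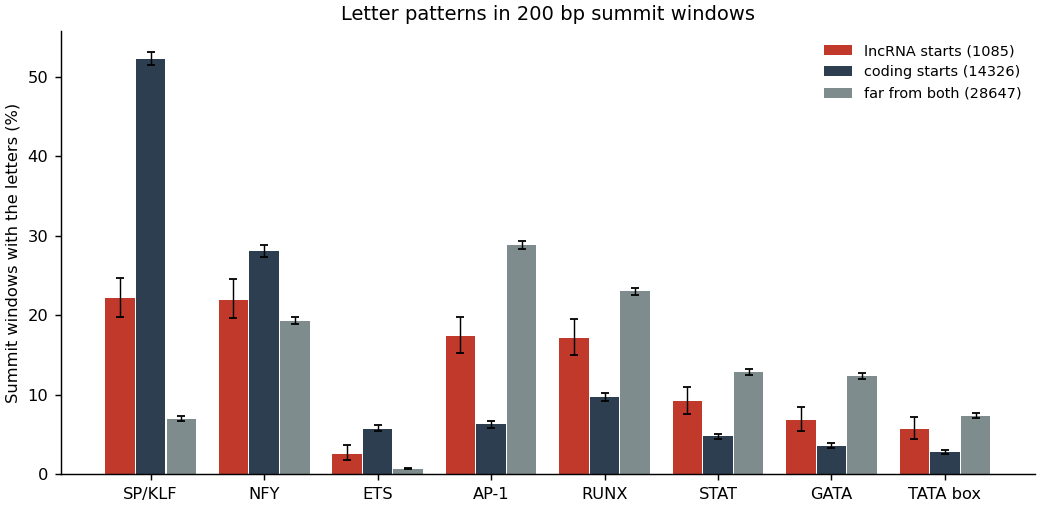
Share of 200 bp summit windows (y axis, %) that hold the letters of 8 patterns (x axis), for regions at lncRNA starts (red), at coding starts (dark) and far from both (grey), with Wilson 95% intervals that cover counting error only. In these 8 groups of bars the lncRNA start bar lies between the other bars, as for SP/KLF with 22.1% against 52.3% and 6.96%; of the 4 patterns not drawn, YY1 and NFAT-like did not lie between.

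Within the set some patterns differed with CpG and others did not. With at least 6 CpG, 42.6% of 472 windows held SP/KLF letters, which themselves contain a CpG, and 9.11% held AP-1 letters. With 0 or 1 CpG, 0.546% of 183 windows (1 window) held SP/KLF and 32.2% held AP-1 letters, and RUNX letters were in 24.6%. NFY letters were about as frequent in both, with 24.2% and 25.1%, and TATAAA was in 4.87% and 6.56%. Regions over a start held SP/KLF letters in 29.9% of 622 windows, and those more than 500 bp from it in 9.48% of 232. More than 50% of the window was masked as repeat in 2.12% of the regions, beside 2.76% of all shared regions.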

How the data were processed

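Peak lists of 2 ATAC-seq libraries of Th2 cells were used as the authors deposited them. Per the file headers, each was made from 1 alignment of that library on mm10; which aligner, peak caller and transposase shift were used is not given in the sources used here. Peak names carry words for masking and removal of duplicates, and the words ASTARR and insert, which no source used here explains; cloned inserts would change what the folds measure. The authors' fold was taken as a ratio, summit over local background. Their deposited −log10 p, −log10 q and score (the last not used further) belong to single peaks. Library depth is not stated, so precision was taken from summit pileups.

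Peaks of both lists overlapping by 1 bp were joined, and a region took the highest fold of each replicate. Distances run from the nearest edge to every transcript start of the comprehensive GENCODE M21 annotation. The rule also allows the type lncRNA, which no gene of this release carries. Pileups that return the deposited −log10 p within 0.001 were found for all 1085 regions under a Poisson model with a pseudocount of 1. Sequence came from the RefSeq GRCm38.p6 genome, and 0 peaks ran past a chromosome end. The joining, distance rule and pileup recovery were tested on simulated data. Python 3.11.15 with pandas 2.3.3, numpy 2.4.6, scipy 1.17.1, pysam 0.24.0 and matplotlib 3.10.9 was used. With 1 group of 2 samples, no test between groups exists and none was made. Wilson intervals are at 95% and cover counting error only.

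Named regions are those at listed lncRNAs, those with listed nearest coding genes, the 15 highest and 8 lowest in mean rank of fold, the 8 widest and 5 narrowest, the 5 with the largest ratio each way, the 5 nearest to and 10 farthest from a coding start, and those of genes with at least 3 regions, 171 in all; further regions are examples of the sequence families and RefSeq overlaps. Results that need items withheld for evaluation are not reported here. The members and lists were chosen with earlier results of these data known. Alternatives changed the distances, annotation, overlap, threshold, replicate and value per region.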

Additional observations from a re-analysis of the deposited data

How the results depend on the processing

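Of 97 values recomputed under 15 alternatives, 65 stayed within the limits set for them. The limit was 1.5 times for the number of regions, and the Wilson interval of 69.33 to 74.66% for the share higher in replicate 2. For medians it was the standard deviation of 2 values, 1 per replicate. That was 0.61 for fold, 12.4 bp for width, 15.9 bp for coding distance and 0 for GC, so small shifts count as moved. Only the share could reverse by its definition, and it did not. With the lncRNA distance at 2.5 kb the number of regions rose from 1085 to 1653, with a median width of 707 bp, a coding distance of 20087 bp and 51% GC. At 500 bp they were 833 bp, 22858 bp and 54%. With −log10 q of at least 10 in both replicates, 688 regions remained, with median folds of 7.57 and 8.58, a width of 915 bp, 53.5% GC and replicate 2 higher in 74.7%. The threshold leaves out weak peaks by construction. From the centre of the region, the coding distance was 21467 bp and GC 53%, and with a coding distance of 2.5 kb they were 27383 bp and 52%. The coding distance was 21305 bp from the 5′ end of each lncRNA gene only, 27466 bp with coding transcripts of type protein_coding only and 22860 bp with an overlap of 50% of each peak. Of the alternatives chosen after seeing the data, the basic annotation gave 28035 bp, RefSeq mRNA starts counted as coding gave 21195 bp and 52% GC, and leaving out the sequence families and the rRNA overlap gave 21417 bp and 52% GC. From the peaks of a single replicate, leaving out each replicate in turn, the number of regions was 1201 to 1408, the median fold 5.50 (replicate 1) and 5.57 (replicate 2), the width 567.5 to 585 bp, the coding distance 21294 to 21316 bp and GC 52%. Where no cause is given, the cause was not tested. No paired analysis was possible because there is 1 group. Library depth is unknown, and weak regions rest on summit counts as low as 10 and 11.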

Other observations

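A start of an annotated snoRNA gene lay within 1 kb of 17 of the 1085 regions, and a start of an annotated microRNA gene within 1 kb of 13. Members gathered around a few coding genes that are on none of the lists: by nearest coding gene, 4 regions lay by Ly86 (at Gm29458, Gm30918, Gm4035 and Gm47711) and 3 by Il6st, the signalling chain of the interleukin-6 receptor family (at 2810403G07Rik, Gm48876 and Gm48879). These genes were chosen after the counts were seen.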
